A study of Mus musculus with 33 samples.

Results

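The 10 serotonin receptor genes described here are the rows of both gene count tables whose symbol is Htr1a, Htr1b, Htr1f, Htr2a, Htr2c, Htr3a, Htr4, Htr5a, Htr6 or Htr7, out of 23366 gene rows. RNA-Seq was carried out on the frontal cortex of C57BL/6 offspring of about 1 month of age. Their dams were placed during pregnancy in whole-body inhalation chambers supplied with filtered air (the air group) or with aerosol of an e-cigarette that held nicotine (nicotine) or none (no nicotine), and dams and pups were then exposed together during nursing. Female offspring made up 6 air, 5 nicotine and 5 no-nicotine libraries, and male offspring 6 air, 6 nicotine and 5 no-nicotine libraries, 33 in all. Both aerosols came from cartridges of one brand and flavor, and all groups share the strain and the handling in exposure chambers. According to the study's methods a single pup was taken per litter, and the sexes were sequenced in separate runs, so every comparison of exposures was made within a sex.

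Serotonin is made by neurons of the brainstem raphe nuclei, whose axons release it throughout the frontal cortex, and its action there depends on which receptors the target cells carry. The Htr1 and Htr5 receptors couple to inhibitory G proteins of the Gi/o class, which lower cyclic AMP and open inwardly rectifying potassium (GIRK) channels. The Htr2 receptors couple to Gq and phospholipase C, the Htr4, Htr6 and Htr7 receptors couple to Gs and raise cyclic AMP, and Htr3a encodes a subunit of the one serotonin receptor that is an ion channel. Htr2a and Htr1a are known for their place on cortical pyramidal neurons, Htr3a marks interneurons born in the caudal ganglionic eminence, Htr2c is very abundant in the choroid plexus, and Htr1b, Htr4 and Htr6 are abundant in the striatum.

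Htr5a and Htr2a were the receptor genes that fell in exposed offspring, and their promoters are shown because both were lower than air in the same female no-nicotine libraries. The sequences are from RefSeq on GRCm38.p6, run from 250 bases before to 50 bases after the start of the transcript, and each occurs once in NCBIM37, the build of the files (mm9). The Htr5a promoter lies at chr5:27841697-27841996 on the plus strand and the Htr2a promoter at chr14:74640624-74640923 on the plus strand, with the GC box (GGGCGG, read on either strand) in capitals.
Htr5a: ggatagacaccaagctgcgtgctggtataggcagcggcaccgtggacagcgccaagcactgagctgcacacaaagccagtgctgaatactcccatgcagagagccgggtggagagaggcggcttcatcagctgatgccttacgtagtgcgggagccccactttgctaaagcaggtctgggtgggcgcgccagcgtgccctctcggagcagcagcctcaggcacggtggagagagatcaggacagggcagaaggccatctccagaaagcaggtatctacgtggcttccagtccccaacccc
Htr2a: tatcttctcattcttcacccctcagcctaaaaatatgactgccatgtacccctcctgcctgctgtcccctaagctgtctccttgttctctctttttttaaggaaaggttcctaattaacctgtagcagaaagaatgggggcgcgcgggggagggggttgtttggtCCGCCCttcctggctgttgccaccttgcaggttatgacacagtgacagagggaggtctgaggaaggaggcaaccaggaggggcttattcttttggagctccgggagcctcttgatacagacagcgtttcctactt

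The search on both strands covered the TATA box (TATAAA), the CCAAT box (CCAAT), the GC box above, the cyclic AMP response element (TGACGTCA) and the E-box (CACGTG). The Htr5a window held none of them, and the Htr2a window held 1 GC box, at -85 from the start. Among all 32851 promoters of the same length in the table, 35.66% held GGGCGG, 37.41% held CCAAT, 13.62% held TATAAA, 7.15% held CACGTG and 1.79% held TGACGTCA. The G and C content was 61.3% for Htr5a and 52.0% for Htr2a, against a median of 52.7% over all promoters. A promoter was found for 8 of the 10 receptor genes.

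Library totals ran from 19150562 to 27513174 counts in females and from 17845672 to 24787955 in males, and all 10 receptor genes passed the filter on low counts in both sexes. Levels are given as CPM, the counts scaled to a common library total after TMM normalization. The check of sex-linked transcripts found 1 library that did not match its label: male nicotine replicate 21 held 1 count from Y-linked genes and 4632 from Xist, whereas every other male-labelled library held at least 2140 Y-linked counts and at most 5 from Xist. Counts of called genes in males and the changes of nicotine males are also given without it, while the tests between the sexes and the correlations include it.

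The dissected tissue differed between air and exposed libraries in its marker transcripts. The summed CPM of 16 markers of cortical glutamatergic neurons ran from 3224 to 4007 in female air libraries, and all 5 nicotine libraries (2313 to 3105) and all 5 no-nicotine libraries (1526 to 3102) lay below them. In males it ran from 3118 to 3664 in air, from 2324 to 3076 in the 6 nicotine libraries and from 1389 to 2364 in the 5 no-nicotine libraries, again without overlap with air. The opposite held for 7 markers of basal forebrain cholinergic neurons, whose sum was above every air library in all 21 exposed libraries of both sexes. The sum of 8 myelin markers was above every air library in all 5 nicotine and all 5 no-nicotine females. In males this held for 2 of 6 nicotine and all 5 no-nicotine libraries. In the cortical sum Slc17a7 alone ran from 835 to 2816 CPM in females and from 653 to 2495 in males. In each comparison with air 14 of these 16 genes had a negative log2 fold change and 2 a positive one. Called lower were 1 in nicotine females, 11 in no-nicotine females, 0 in nicotine males and 11 in no-nicotine males. In each group but nicotine males 1 was called higher. Fewer cells of a type and less RNA per cell cannot be told apart in such bulk samples. The part of the cortical markers in the receptor results was tested only by a covariate, given below.

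**Figure D1:**
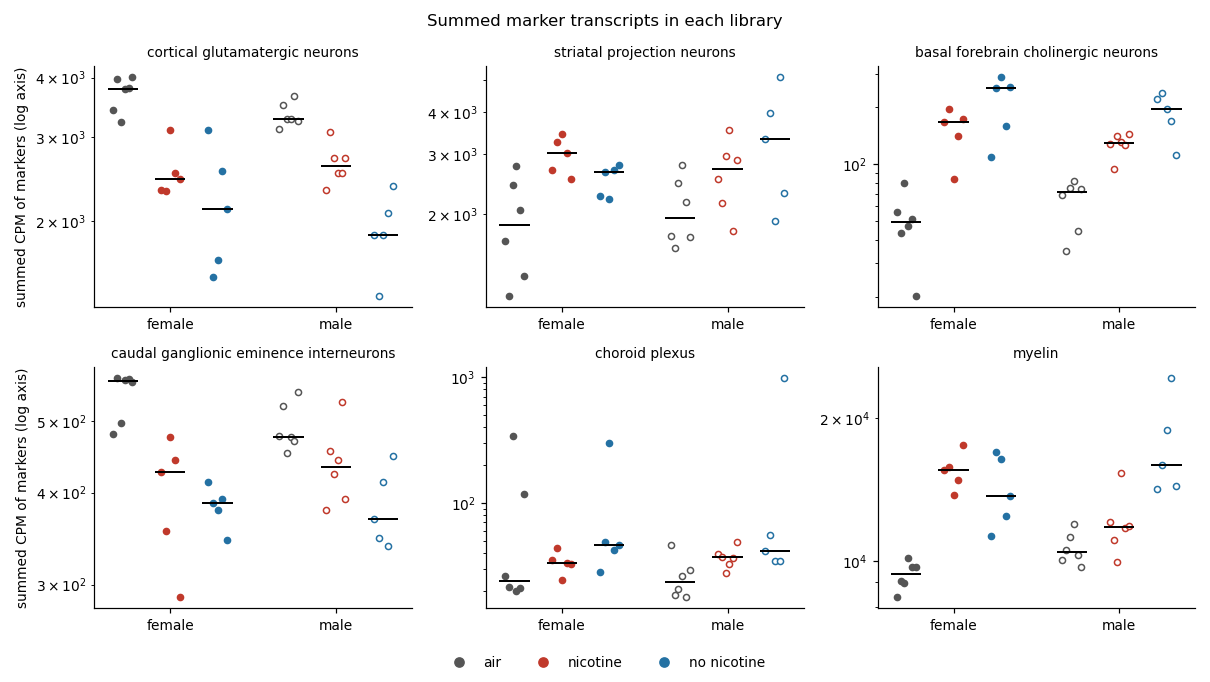
Summed CPM of 6 marker lists in each library (y axis, logarithmic), by exposure (color) and sex (filled points female, open points male), with the group median as a bar. Summed cortical glutamatergic markers sit below every air library in all exposed libraries. The choroid plexus sum is far above the rest in single libraries, at 341 in female air replicate 3, 299.8 in female no-nicotine replicate 3 and 982 in male no-nicotine replicate 7. Female air replicate 6 also stands apart, at 117.

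In air-exposed offspring the receptor genes spanned more than an order of magnitude in level. Per kilobase of annotated exon, median levels in females and males were 17.7 and 18.03 CPM for Htr2c, 12.3 and 10.2 for Htr2a, 7.70 and 7.43 for Htr1a, 6.11 and 5.45 for Htr5a, and 4.81 and 4.33 for Htr7. Below these came Htr3a at 3.37 and 3.45, Htr6 at 3.18 and 3.12, Htr1b at 3.06 and 3.26, Htr1f at 1.17 and 1.26, and Htr4 at 1.17 and 1.35 CPM per kilobase. Sample ranges of neighbors in this order overlapped in most steps, and in both sexes the range of Htr1f and Htr4 lay apart from that of the gene ranked just above them. In females the ranges were also separate between Htr2a and Htr1a and between Htr1a and Htr5a, and in males between Htr2c and Htr2a. The level of Htr2c depends on the length used, since its exons add up to 9328 bases while its longest transcript has 4883, and with the latter its median was 33.9 CPM per kilobase in females and 34.4 in males. Htr1b is annotated with 1273 exon bases, 852 of which overlap D430036J16Rik on the opposite strand, and reads of the pair cannot be told apart without a stated strand setting.

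**Figure D2:**
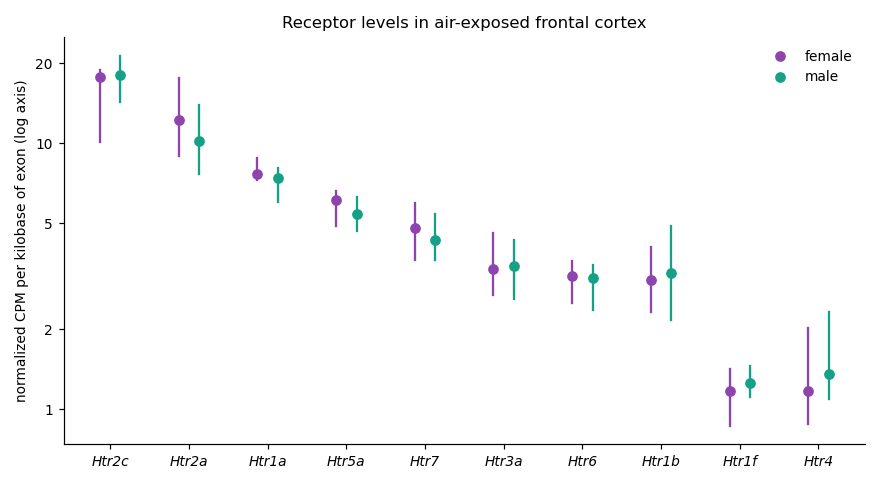
Levels of the 10 receptor genes in air-exposed frontal cortex, as normalized CPM per kilobase of exon (y axis, logarithmic), for 6 female and 6 male libraries, where points are medians and lines span the lowest to the highest library. Htr2c stands highest at 17.7 in females and 18.03 in males, and Htr1f and Htr4 stand lowest.

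The question of the design is whether early life exposure to aerosol, with or without nicotine, changed these transcripts relative to sex-matched air controls, and edgeR's quasi-likelihood test with Benjamini-Hochberg adjustment over all genes tested was used, with an adjusted p below 0.01 called changed. In female nicotine offspring 1 of 10 receptor genes changed, Htr5a, which fell, where 4.29% of the 15158 genes tested were called (1.98% higher and 2.32% lower). In female no-nicotine offspring 3 of 10 changed, with Htr5a and Htr2a lower and Htr4 higher, where 12.1% of all genes were called (5.03% higher and 7.03% lower). In male no-nicotine offspring 1 of 10 changed, Htr5a, again lower, where 13.6% of 15293 genes were called (6.15% higher and 7.47% lower). In male nicotine offspring 3 of 10 receptor genes had an unadjusted p below 0.05 (edgeR), beside 2203 of all 15293 genes tested. The number called by edgeR, DESeq2 or limma-voom was 0 of 10, where edgeR called 0% of all genes in either direction, limma-voom 0% and DESeq2 1.04%. Without male nicotine replicate 21 this count was still 0, with log2 fold changes of -0.24 for Htr5a, -0.26 for Htr2a, 0.60 for Htr4 and 0.28 for Htr7, and the values of Htr1a and Htr3a, both near 0, changed sign (-0.010 and -0.0092). The others were then 0.24 for Htr1b, 0.13 for Htr2c, 0.098 for Htr6 and -0.028 for Htr1f, and the count in no-nicotine males stayed at 1. The share of all genes called was not kept for fits without single libraries. The exposures of a sex share the same air libraries, so their values stand side by side and are not independent of each other. The median absolute log2 fold change over the 10 receptor genes was 0.32, 0.39, 0.16 and 0.24 in female nicotine, female no-nicotine, male nicotine and male no-nicotine offspring, beside 0.10, 0.12, 0.07 and 0.12 over all genes tested.

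**Figure D3:**
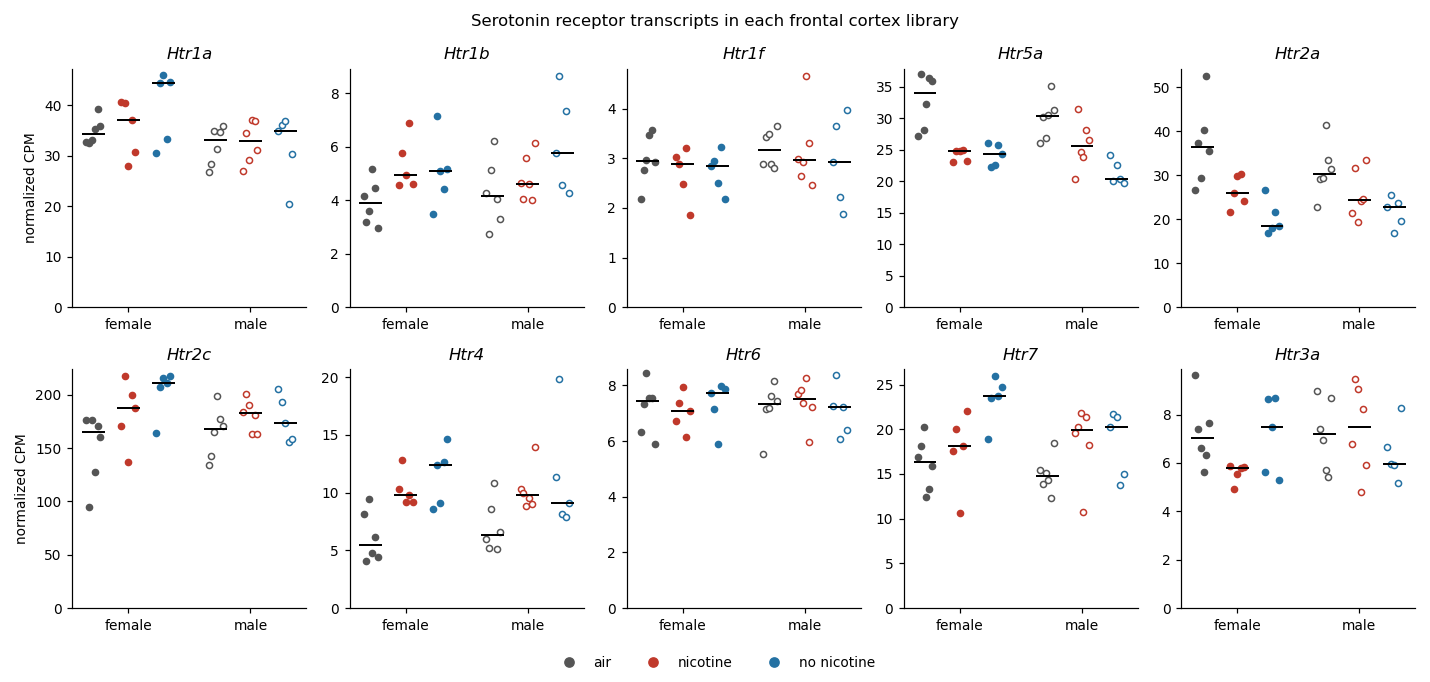
Normalized CPM of the 10 receptor genes in each of the 33 libraries (y axes from 0), by exposure (color) and sex (filled points female, open points male), with the group median as a bar. All Htr5a points of the female nicotine, female no-nicotine and male no-nicotine groups lie under the lowest air point of their sex, and the female no-nicotine points of Htr2a do the same.

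Htr5a, one of the Gi/o-coupled receptors, lies at chr5:28168487-28181626 on the plus strand of NCBIM37 and had 381 to 854 counts per library. In females its level ran from 27.2 to 37.02 CPM (median 34.1) in the 6 air libraries. It was 23.0, 24.8, 24.8, 25.0 and 23.2 CPM in the nicotine libraries and 26.0, 22.3, 22.5, 25.7 and 24.4 CPM in the no-nicotine libraries. Both exposed groups of females thus lay wholly under the air group, which was so, in either direction, for 6.67% of all genes with nicotine and 10.7% without it. The log2 fold change was -0.44 ± 0.08 (SE, adjusted p = 0.00252, edgeR) with nicotine and -0.44 ± 0.08 (adjusted p = 0.00133, edgeR) without, and the difference between these exposures was -0.0026 with a 95% interval from -0.18 to 0.17.

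In males Htr5a ran from 26.0 to 35.1 CPM (median 30.4) in air. The no-nicotine libraries held 24.2, 20.1, 22.6, 20.3 and 19.8 CPM, all under the lowest air library, as was the case in either direction for 12.4% of all genes. The change was -0.49 ± 0.10 on the log2 scale (SE, adjusted p = 0.00119, edgeR). The 6 male nicotine libraries ran from 20.3 to 31.4 CPM (median 25.6) and overlapped with air, with a log2 fold change of -0.22 ± 0.09 (adjusted p = 0.269, edgeR) or -0.24 without replicate 21. Groups that did not overlap made up 2.05% of all genes in that comparison. Each of the 3 calls of Htr5a held when any single library was left out. That in nicotine females was lost with library number as a replicate block (-0.43, adjusted p = 0.0142, edgeR), and all 3 were lost with the marker covariate described further on. The female minus male difference in its change was -0.22 ± 0.12 with nicotine (adjusted p = 0.825, edgeR) and 0.05 ± 0.13 without (adjusted p = 0.984, edgeR).

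The other Gi/o-coupled receptor genes were not called in any comparison with air. Htr1a, the main somatic autoreceptor of raphe neurons and a receptor of cortical pyramidal neurons (chr13:106233773-106238213, plus strand), had group medians from 32.8 to 44.4 CPM and log2 fold changes from -0.01 to 0.19. Its female no-nicotine libraries were split, at 30.5, 44.4, 45.9, 33.3 and 44.5 CPM against 32.5 to 39.3 in air. Htr1b, a presynaptic receptor (chr9:81524950-81526222, minus strand), had only 62 to 199 counts per library, and its log2 fold changes were 0.44 ± 0.18 and 0.36 ± 0.18 in female and 0.19 ± 0.20 and 0.52 ± 0.20 in male nicotine and no-nicotine offspring, with adjusted p from 0.0676 to 0.726 (edgeR). Htr1f (chr16:64924555-65105610, minus strand) was the least counted, at 37 to 92 counts per library, and its changes lay between -0.16 and -0.01.

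Htr2a encodes the Gq-coupled receptor at which serotonergic psychedelics act, and lies at chr14:75040647-75106666 on the plus strand. Female air libraries held 26.7 to 52.5 CPM (median 36.5). The nicotine libraries held 21.7, 25.9, 29.8, 30.3 and 24.2 CPM, and the no-nicotine libraries 26.6, 16.9, 17.9, 21.7 and 18.4 CPM. The no-nicotine group lay wholly under air, though its highest library (26.6 CPM) was close to the lowest air library (26.7 CPM), while the nicotine group overlapped with it. The log2 fold change was -0.86 ± 0.16 without nicotine (SE, adjusted p = 0.00141, edgeR), 1.82-fold lower, and -0.49 ± 0.15 with nicotine (adjusted p = 0.0464, edgeR), which did not pass the threshold. The direct comparison of nicotine with no-nicotine females gave 0.38 ± 0.16 (adjusted p = 0.587, edgeR).

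In males Htr2a ran from 22.8 to 41.4 CPM in air (median 30.3) and from 19.3 to 33.4 CPM (median 24.3) in the nicotine group. It was 22.9, 25.6, 16.8, 23.8 and 19.5 CPM in the no-nicotine libraries, of which 3 lay within the air range. The log2 fold changes of -0.27 ± 0.14 (adjusted p = 0.402) and -0.52 ± 0.15 (adjusted p = 0.0169) were not called by edgeR, and the latter was called by DESeq2 (adjusted p = 0.00418). Female minus male differences in the change of Htr2a were -0.21 ± 0.22 and -0.33 ± 0.23 with and without nicotine (adjusted p = 0.921 and 0.948, edgeR).

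Htr2c, the other Gq-coupled receptor gene (chrX:143397056-143631820, plus strand), had by far the most counts, 2121 to 5542 per library. Female air libraries ran from 94.7 to 176.7 CPM (median 165). The no-nicotine libraries held 165, 208, 216, 211 and 218 CPM, 4 of 5 above every air library, and the nicotine libraries held 171, 218, 137, 199.8 and 188 CPM. Neither the log2 fold change of 0.43 ± 0.14 without nicotine (adjusted p = 0.0374, edgeR) nor that of 0.27 ± 0.14 with it (adjusted p = 0.227, edgeR) passed the threshold. In males the changes were 0.13 ± 0.09 and 0.11 ± 0.09. Of the libraries rich in choroid plexus transcripts, female air replicate 3 held 176 CPM of Htr2c, close to the top of its group, and female no-nicotine replicate 3 held 216 CPM. Male no-nicotine replicate 7, the richest, held 159 CPM in a group that ran from 156 to 206 CPM. Female air replicate 6 held 160 CPM, under its group median. The no-nicotine change in females was 0.47 without air replicate 3 and 0.41 without no-nicotine replicate 3, and in males it was 0.14 without no-nicotine replicate 7.

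Among the Gs-coupled receptors Htr4 rose in female no-nicotine offspring. It lies at chr18:62483858-62627456 on the plus strand and had 92 to 458 counts per library. Female air libraries ran from 4.11 to 9.42 CPM (median 5.45), nicotine libraries held 10.3, 12.8, 9.17, 9.78 and 9.22 CPM, and no-nicotine libraries held 8.55, 12.4, 9.12, 12.7 and 14.7 CPM. The highest air library, replicate 3, reached into both exposed ranges, so the groups overlapped in both comparisons. The change was 0.90 ± 0.20 without nicotine (SE, adjusted p = 0.00413, edgeR), 1.86-fold, and 0.73 ± 0.20 with it (adjusted p = 0.0246, edgeR). The change with nicotine was called by DESeq2 (adjusted p = 0.00478) and limma-voom (adjusted p = 0.00989), which called 8.70% and 6.68% of all genes. The no-nicotine call was lost when air replicate 4 or 6 or no-nicotine replicate 2, 4 or 5 was left out, with adjusted p up to 0.0144, in a fit of only the 2 groups compared (adjusted p = 0.0107) and with the replicate block (adjusted p = 0.0227).

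In males Htr4 ran from 5.09 to 10.8 CPM in air (median 6.30), from 8.88 to 14.0 in the nicotine libraries (median 9.76), and was 11.4, 19.9, 8.13, 7.90 and 9.09 CPM in the no-nicotine libraries. The log2 fold changes of 0.56 ± 0.23 (adjusted p = 0.260) and 0.69 ± 0.23 (adjusted p = 0.0379) were not called by edgeR. The second became 0.38 (adjusted p = 0.170) without no-nicotine replicate 3, the library at 19.9 CPM. Summed markers of striatal projection neurons, which are rich in Htr4, had group medians of 1856 CPM in air, 3029 with nicotine and 2662 without in females, and 1946, 2708 and 3332 CPM in males, and their part in the Htr4 values was not tested.

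Htr7, a Gs-coupled receptor of thalamus and limbic cortex (chr19:36033224-36131997, minus strand), was not called. It ran from 12.4 to 20.2 CPM in female air libraries and was 18.9, 23.4, 25.9, 23.7 and 24.7 CPM in no-nicotine females, 4 of 5 above every air library. The log2 fold change was 0.53 ± 0.15 (adjusted p = 0.0167, edgeR), and DESeq2 and limma-voom called it. The other comparisons with air gave 0.13 ± 0.15 in nicotine females, 0.32 ± 0.15 in nicotine males and 0.31 ± 0.16 in no-nicotine males. Summed markers of the thalamus lay above every air library in 4 of 5 no-nicotine females, 2 of 5 nicotine females, 5 of 6 nicotine males and 3 of 5 no-nicotine males. The one no-nicotine female and the one nicotine male that did not (replicate 1 at 107.6 CPM and replicate 19 at 83.4 CPM) also held the least Htr7 of their groups, 18.9 and 10.7 CPM, and the part of these markers in the Htr7 values was not tested. Htr6 (chr4:138617023-138631485, minus strand) had group medians from 7.07 to 7.74 CPM and changes from -0.03 to 0.04, with 95% intervals that stayed between -0.24 and 0.25 in all 4 comparisons with air.

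Htr3a, the ion channel subunit (chr9:48707319-48719204, minus strand), had 94 to 221 counts per library. Nicotine females held 5.86, 4.94, 5.53, 5.79 and 5.82 CPM against 5.62 to 9.62 in air (median 7.02), a log2 fold change of -0.36 ± 0.15 (adjusted p = 0.114, edgeR) that was not called. The other changes were -0.01 ± 0.14 in no-nicotine females, 0.03 ± 0.16 in nicotine males and -0.17 ± 0.17 in no-nicotine males. Summed markers of caudal ganglionic eminence interneurons lay below every air library in all 10 exposed females, in 4 of 6 nicotine males and in all 5 no-nicotine males. Among its 11 genes Cck had the widest range in CPM, 60.9 to 344 in females and 76.3 to 233 in males, and the list did not move one way, since 6 genes had a positive log2 fold change in nicotine females, no-nicotine females and no-nicotine males and 4 in nicotine males. The part of these markers in the Htr3a values was not tested.

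**Figure D4:**
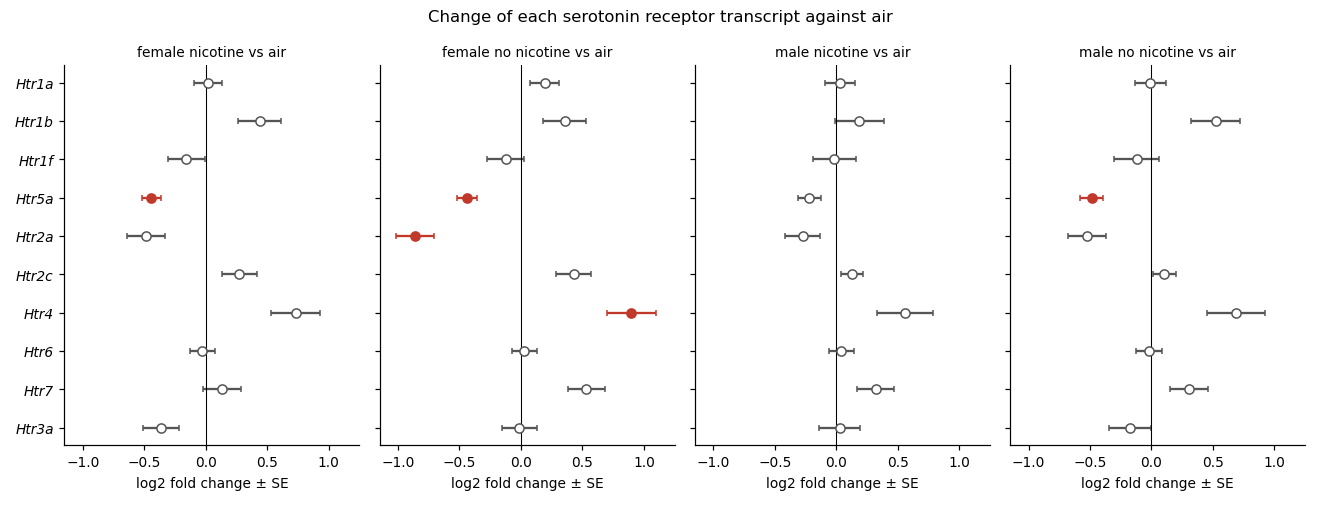
Log2 fold change against air (x axis) with its standard error for the 10 receptor genes in the 4 comparisons, where filled red points passed an adjusted p of 0.01 (edgeR) and open points did not. Htr5a is called in 3 panels at -0.44, -0.44 and -0.49, and Htr2a (-0.86) and Htr4 (0.90) in no-nicotine females.

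The receptor genes were also compared directly between aerosols. In females 0 of 10 were called by edgeR, DESeq2 or limma-voom, each of which called 0% of all genes. An unadjusted p below 0.05 (edgeR) was reached by 3 (Htr2a, Htr7 and Htr3a), beside 1267 of all 15158 genes tested. In males 0 of 10 were called by these tools, where edgeR called 0.248% of all genes, DESeq2 2.99% and limma-voom 0.386%. An unadjusted p below 0.05 (edgeR) was reached by 1 receptor gene, beside 3071 of all 15293 genes tested. It was Htr5a (0.27 ± 0.10, 95% interval 0.07 to 0.47, or 0.24 without nicotine replicate 21). Tests of whether a change differed between the sexes called 0 of 20, none with an unadjusted p below 0.05, and 0% of the 15105 genes tested in both sexes, with sex and sequencing run inseparable in them.

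Given the marker sums above, the comparisons with air were refitted with a cortical marker score as a covariate, and no receptor gene was then called. The score was the mean log2 CPM of the 16 cortical glutamatergic markers, so unlike the sum it weighed each gene alike. Htr5a stood at -0.28 (adjusted p = 0.223) and -0.20 (adjusted p = 0.871) in nicotine and no-nicotine females and at -0.41 (adjusted p = 0.235) in no-nicotine males, by edgeR. In no-nicotine females Htr2a stood at -0.29 (adjusted p = 0.876) and Htr4 at 0.42 (adjusted p = 0.877). The summed markers did not overlap between air and exposed libraries. Whether the score overlapped was not examined, so exposure and marker level cannot be told apart by this fit.

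Across libraries the receptor genes varied partly together after the group means were removed. By the mean of the female and male r, the highest pair was Htr5a with Htr2a (r = 0.80 over 16 female and 0.48 over 17 male libraries) and the lowest Htr6 with Htr3a (-0.46 and -0.49). Within a single sex other pairs went further, with Htr1b and Htr4 at 0.70 in males (0.32 in females) and Htr5a and Htr4 at -0.60 in females (-0.13 in males). Some pairs had opposite signs in the sexes, such as Htr2a and Htr4 at -0.47 in females and 0.56 in males. Over all genes tested, the 3 most like Htr5a were Oxr1, Herc3 and Slitrk1, with a mean of the female and male r of 0.96 each. For Htr2a they were Gpr26, Zfp148 and Hs6st3 (0.92, 0.91 and 0.91), and for Htr4 they were Nts, Gpr149 and Robo1 (0.91, 0.91 and 0.90). These values include the differences between groups, and the genes share libraries and depth. With group means removed, Htr5a and Oxr1 correlated at 0.92 in females and 0.93 in males.

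The remaining genes of serotonin signaling were taken as 46 genes, 42 of which passed the filter on low counts. Of these 7 changed in nicotine females (2 higher, 5 lower, beside 4.29% of all genes called), 12 in no-nicotine females (3 higher, 9 lower, beside 12.1%), 0 in nicotine males (beside 0%) and 10 in no-nicotine males (3 higher, 7 lower, beside 13.6%). Without male nicotine replicate 21 the counts in males were 0 and 9, with no share of all genes kept for that fit. With the cortical marker covariate 0 of these genes were called in each comparison with air. Under the replicate block 1 was called in nicotine females (0.897% of all genes) and 6 in no-nicotine females (4.86%). Leaving out single libraries gave 2 to 8 in nicotine females. In nicotine males 11 of the 42 genes had an unadjusted p below 0.05 by edgeR, beside 2203 of all 15293 genes tested. DESeq2 called 3 of the 42 there, beside 1.04% of all genes. In a list of 7 markers of raphe neurons, Slc6a4, the serotonin transporter, had 0 to 9 counts per library. Fev, the transcription factor of raphe neurons, had 0 to 1, Gata3 0 to 3 and En1 0 to 10. Tph2, the neuronal enzyme of the first step of serotonin synthesis, had 11 to 69. The other members were better counted, Slc18a2 at 131 to 264 and Gata2 at 122 to 236.

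Genes of synthesis and clearance that changed were all higher. Ddc, the decarboxylase that forms serotonin and dopamine, ran from 7.13 to 9.59 CPM in female air libraries, from 13.2 to 16.3 with nicotine and from 10.5 to 21.1 without. It rose by 0.70 ± 0.13 and 0.79 ± 0.13 in nicotine and no-nicotine females and by 0.83 ± 0.11 in no-nicotine males (adjusted p = 0.0031, 0.000934 and 6.0e-05, edgeR), with no overlap with air. Pcbd1, which recycles the cofactor of the hydroxylases, rose by 1.03 ± 0.21 in no-nicotine females and 0.70 ± 0.14 in no-nicotine males. Maoa, which breaks serotonin down, rose by 0.22 ± 0.05 in no-nicotine females, and Qdpr, another cofactor enzyme, by 0.23 ± 0.06 in no-nicotine males.

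Of 19 genes of G proteins, effectors and regulators, 1 was higher and 4 were lower in nicotine females, 8 were lower in no-nicotine females, 5 were lower in no-nicotine males and 0 were called in nicotine males. The GIRK channel genes Kcnj3, Kcnj6 and Kcnj9 fell in nicotine females by 0.67, 0.78 and 0.64 on the log2 scale, in no-nicotine females by 0.79, 0.92 and 0.74, and in no-nicotine males by 0.81, 0.98 and 0.59. Kcnj6 ran from 18.1 to 29.5 CPM in female air libraries and from 8.83 to 17.6 in no-nicotine females, with no overlap. Exons of Kcnj3 overlap Gm17595 on the opposite strand. Gnaq, the G protein of the Htr2 receptors, fell in the same 3 comparisons by 0.23, 0.22 and 0.24. Adcy1, a neuronal adenylyl cyclase, fell by 1.01 in no-nicotine females and 0.67 in no-nicotine males, and Rgs4, Gnao1 and Gnai1 fell in no-nicotine females by 0.82, 0.25 and 0.26. Gnai2, another Gi subunit, was not called, with 0.16 in no-nicotine females (adjusted p = 0.0371, edgeR) and 0.16 in no-nicotine males (adjusted p = 0.0118, edgeR), and neither was Gnai3.

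Mpdz, a scaffold that binds the tail of Htr2c, fell in the same 3 comparisons as Gnaq, by 0.28, 0.22 and 0.38, and S100a10, which binds Htr1b and Htr4, fell by 0.32 in no-nicotine males. Ppp1r1b rose by 0.68 ± 0.15 in nicotine females. It encodes DARPP-32, is also among the striatal markers and overlaps 1700003D09Rik on the opposite strand. Ppp1r1b, Adcy1, Rgs4, Gnao1, Gnai1, Gnai2 and Gnai3 were named after their values were seen. Of the 4 other receptor genes, Htr1d and Htr5b were tested and not called, while Htr2b (1 to 9 counts) and Htr3b (0 to 3 counts) did not pass the filter.

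**Figure D5:**
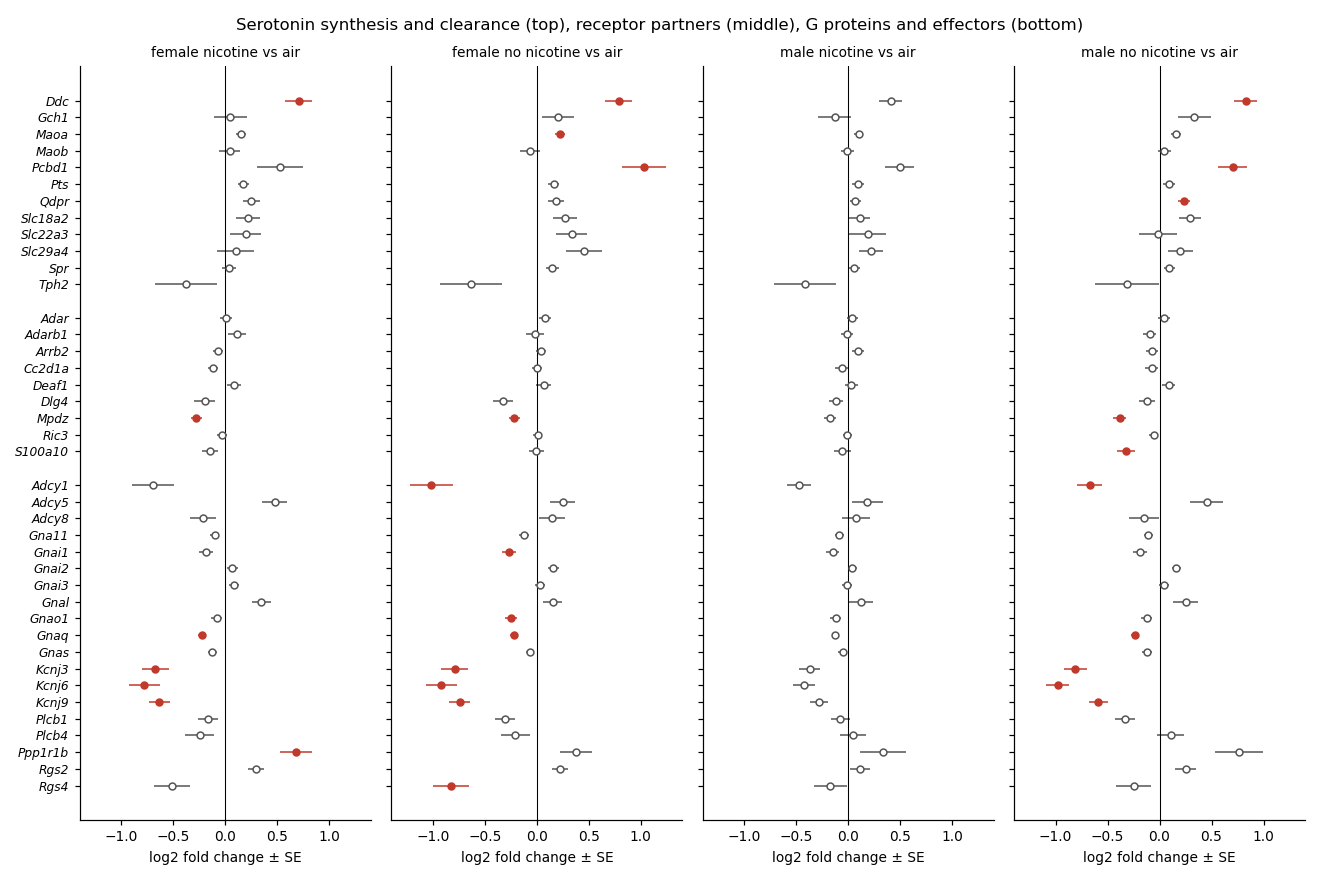
Log2 fold change against air (x axis) with its standard error for 40 genes of serotonin synthesis and clearance (top block), receptor partners (middle) and G proteins and effectors (bottom), where filled red points passed an adjusted p of 0.01 (edgeR). The GIRK genes Kcnj3, Kcnj6 and Kcnj9 lie left of 0 and Ddc right of 0 in every panel, without passing the threshold in nicotine males.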

How the data were processed

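Gene counts were deposited in 2 tables, 1 per sex. According to the study's methods, the authors sequenced libraries of single reads, mapped them to the mm9 mouse transcriptome with Bowtie, removed PCR duplicates with SAMtools, counted reads per gene with HTSeq and left out outlier samples after a principal component analysis. Removal of duplicates without molecular identifiers compresses high counts, and the strand setting is not given in the sources used here. Per-sample columns that matched no sample (1) were not used.

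The counts were analysed per sex with edgeR 4.0.16 in R 4.3.3 (quasi-likelihood test, TMM normalization, the 3 exposure groups in a single fit). Genes with a CPM summed over the libraries of a sex of at least 5 were tested, and an adjusted p (Benjamini-Hochberg) below 0.01 was called. Differences between the sexes were tested as interactions in a fit of all 6 groups. The study's own DESeq2 test (version 1.42.0 here), limma-voom (limma 3.58.1), other normalizations and filters, a threshold of 0.05, fits of 2 groups, a marker covariate, a replicate block and omission of each library were alternatives. Tests were tried on simulated data. Correlations of a receptor gene with all genes used log2 CPM with a prior count of 1, and those between receptor genes used log2 CPM without one. Intervals are at 95%.

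The receptor genes and the gene lists were chosen with earlier results of these data known. The text names the 10 receptor genes, up to 4 called pathway genes per list by smallest p, and the 3 genes most like each called receptor, and Adcy1, Rgs4, Gnao1, Gnai1, Gnai2, Gnai3 and Ppp1r1b were added after their values were seen. Nothing in the labels ties same-numbered libraries to a litter or batch. Among 14 pairs of same-numbered female libraries, 4 had deviations correlated above 0.1 (range -0.27 to 0.27), so the numbers were not taken to pair libraries.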

Additional observations from a re-analysis of the deposited data

Results flagged for a closer look

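Over the 60 groups of libraries formed by receptor gene, sex and exposure, 3 held a library far from the others by Dixon's criterion, which chance alone meets in about 1 group in 20. Htr2c was 164.6 CPM in female no-nicotine replicate 1, under the next lowest of that group at 208 CPM, a gap of 0.813 of the range over 5 libraries. Htr4 was 14.0 CPM in male nicotine replicate 22, with the next highest at 10.3 CPM, a gap of 0.721 of the range over 6 libraries. Htr7 was 10.7 CPM in male nicotine replicate 19, with the next lowest at 18.2 CPM, a gap of 0.679 of the range over 6 libraries. No receptor gene was called in nicotine males by edgeR with or without any single library.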

How the results depend on the processing

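The 80 log2 fold changes of the receptor genes and the counts of called genes were recomputed under each alternative. No called log2 fold change of a receptor gene changed sign. Leaving out single libraries changed the sign of 18 that were not called, the largest of which was 0.13 in size. Their ranges in females were -0.033 to 0.096 for Htr1a and -0.078 to 0.025 for Htr6 (nicotine), -0.10 to 0.083 for Htr3a and -0.027 to 0.099 for Htr6 (no nicotine), and -0.020 to 0.23 for Htr1b, -0.10 to 0.087 for Htr1f and -0.030 to 0.033 for Htr5a (nicotine against no nicotine). In males they were -0.018 to 0.076 for Htr1a, -0.16 to 0.055 for Htr1f, -0.056 to 0.12 for Htr3a and -0.024 to 0.098 for Htr6 (nicotine), -0.072 to 0.11 for Htr1a and -0.092 to 0.028 for Htr6 (no nicotine), and -0.084 to 0.10 for Htr1a, -0.033 to 0.24 for Htr1f, -0.018 to 0.084 for Htr2c, -0.25 to 0.18 for Htr4 and -0.072 to 0.13 for Htr7 (nicotine against no nicotine). Counts of called receptor genes ranged from 1 to 2 in nicotine females, 2 to 4 in no-nicotine females and 1 to 2 in no-nicotine males, and those of pathway genes from 2 to 8, 5 to 13 and 8 to 11. The shares of all genes called were not kept for fits without single libraries. Whether these counts follow the share of all genes called therefore cannot be told.

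With the cortical marker score as covariate no receptor or pathway gene was called in these comparisons (0 each), and 18 receptor changes that were not called changed sign. In nicotine females these were Htr1a -0.18, Htr1f 0.086, Htr2c -0.051, Htr6 0.054 and Htr7 -0.33, in no-nicotine females Htr1a -0.13, Htr1f 0.24, Htr2c -0.054 and Htr7 -0.13, in nicotine males Htr1a -0.072, Htr1b -0.015, Htr2c -0.013 and Htr6 -0.069, and in no-nicotine males Htr2c -0.21, Htr4 -0.17 and Htr7 -0.20. Between aerosols Htr2c became 0.0025 in females and Htr4 0.38 in males. The cause was not tested.

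Other alternatives turned 11 values near 0. Limma-voom gave 0.013 for Htr1a in no-nicotine males, 0.0025 for Htr3a in no-nicotine females, -0.0014 for Htr6 in nicotine males, and between aerosols 0.029 for Htr1f in females and -0.029 for Htr7 in males. Upper quartile normalization gave 0.0014 for Htr3a in no-nicotine females and 0.0025 for Htr5a between aerosols in females. The replicate block by library number, which does not pair the libraries and was possible only in females, gave -0.0032 for Htr1a and 0.00073 for Htr6 with nicotine, 0.0038 for Htr3a without and 0.068 for Htr1f between aerosols.

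For the alternatives other than leaving out single libraries, counts can be set beside the share of all genes called under the same setting. Under the replicate block 0 receptor and 1 pathway gene were called in nicotine females (0.897% of all genes), and 2 receptor and 6 pathway genes in no-nicotine females (4.86%). In nicotine females DESeq2 called 2 receptor and 11 pathway genes (8.70%), limma-voom 2 receptor genes (6.68%), and a threshold of 0.05 gave 3 and 13 (12.5%). In no-nicotine females a threshold of 0.05 gave 5 receptor genes (25.0%). In nicotine males DESeq2 called 3 pathway genes (1.04%) and the fit of 2 groups 1 (0.114%). In no-nicotine males DESeq2 called 2 receptor genes (17.2%), and a threshold of 0.05 gave 3 receptor and 16 pathway genes (24.7%). With the marker covariate the share was at most 0.0785% in these comparisons.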
